A study of Mus musculus with 14 samples.

Results

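Skeletal and cardiac muscle build the same contractile machine from different genes. The transcripts followed here are 9 isoforms that are best known from skeletal muscle, measured in mouse heart: Mylpf, Tnnc2, Tnni1, Tnni2, Tnnt1, Tnnt3, Mybpc2, Atp2a1 and Actn3. They were chosen by name and matched through GENCODE M21 to 9 of the 55487 genes in the count table. Of the 9, 5 had enough reads to be tested among 15528 genes, and the other 4 (Tnnc2, Tnni1, Tnnt3 and Actn3) are described by their counts. The hearts came from untreated male C57BL/6 mice of 2 genotypes and 2 ages. At 2 months there were 3 wild-type hearts and 3 hearts from cardiac-specific p62 knockout mice (Myh6-Cre-Sqstm1fl/fl), and at 15 months 4 of each. In the knockout, Cre driven by the Myh6 promoter deletes Sqstm1, the gene of the autophagy receptor p62, in cardiac muscle cells, so that the other cells of the heart keep the gene. The labels do not say whether the wild-type mice carried Cre or a floxed allele.

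Contraction is switched on when calcium binds troponin C, which moves troponin I and troponin T and with them tropomyosin off the myosin-binding sites of actin. Each of these proteins, and the regulatory myosin light chain, myosin-binding protein C, alpha-actinin and the calcium pump of the sarcoplasmic reticulum, comes from a gene family whose members are used by fast fibres, slow fibres or the heart. Adult heart muscle relies on the cardiac members, while slow skeletal troponin I is also the troponin I of the fetal heart.

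Library totals were between 20218992 and 30404416 counts. Levels are given in CPM, counts scaled to a common library total with TMM (a correction for library composition), and genes are compared with each other as CPM per kilobase of exon. Exon length is that of all annotated exons of a gene merged, which can exceed the length of its main transcript. Orders and percentages between genes depend on it. As a check of the labels, the mean level of Sqstm1 was 162 CPM in wild-type hearts against 16.4 CPM in knockout hearts when young, and 201 against 21.3 CPM when old, with no overlap at either age. The hearts are labelled as whole, but the atrial myosin light chain Myl7, looked at after its values were seen, was above 10 CPM in 5 of 14 libraries and below 0.5 CPM in the other 9. Wild-type replicate 1 at 2 months stood apart with 638 CPM of Myl7. Nothing in the labels says that the hearts of a group came from separate litters or were handled apart. The p-values therefore reflect only how far these libraries spread, which may be technical.

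The 9 transcripts ranged from moderate to nearly absent. Mybpc2, the fast skeletal myosin-binding protein C, was highest at 3.53 ± 1.11 CPM per kilobase (SD, n = 14), and Tnnt1, slow skeletal troponin T, followed at 2.39 ± 1.05. These placed Mybpc2 at the 62.7th and Tnnt1 at the 53.1st percentile of the genes tested. Fast troponin I, Tnni2, had 0.681 ± 0.463 CPM per kilobase, the fast regulatory light chain Mylpf 0.625 ± 0.627 and the fast-fibre calcium pump Atp2a1 (SERCA1) 0.266 ± 0.243. Fast troponin T (Tnnt3) at 0.0803 ± 0.0853, slow troponin I (Tnni1) at 0.0779 ± 0.152, the fast-fibre alpha-actinin Actn3 at 0.0396 ± 0.0455 and fast troponin C (Tnnc2) at 0.0217 ± 0.0344 made up the rest. Every pair of neighbours in this order overlapped in range. Library by library, Tnnt1 was above Tnni2 in 14 of 14, whereas Mybpc2 was above Tnnt1 in 10, Tnni2 above Mylpf in 10 and Mylpf above Atp2a1 in 11.

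Each isoform was far below the cardiac gene with the same role. Mybpc2 stood at 0.923% of Mybpc3 per kilobase (range over libraries 0.473% to 1.54%) and Tnnt1 at 0.675% of Tnnt2 (0.321% to 1.31%). The percentage of Tnnt1 is smaller without the exon lengths, with means of 5.27 CPM for Tnnt1 and 2747 CPM for Tnnt2. The remaining 7 were below 0.1% on average: Tnni2 was at 0.0453% of Tnni3, Tnnt3 at 0.0227% of Tnnt2, Atp2a1 at 0.0160% of Atp2a2, Mylpf at 0.0159% of Myl2 and Actn3 at 0.0121% of Actn2. Tnni1 was at 0.00518% of Tnni3 and Tnnc2 at 0.00168% of Tnnc1, the calcium sensor shared by heart and slow fibres. The summed level of 10 cardiac contractile and calcium-pump genes was between 42400 and 56870 CPM in every library. None of the 10 passed the test in any comparison.

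**Figure D1:**
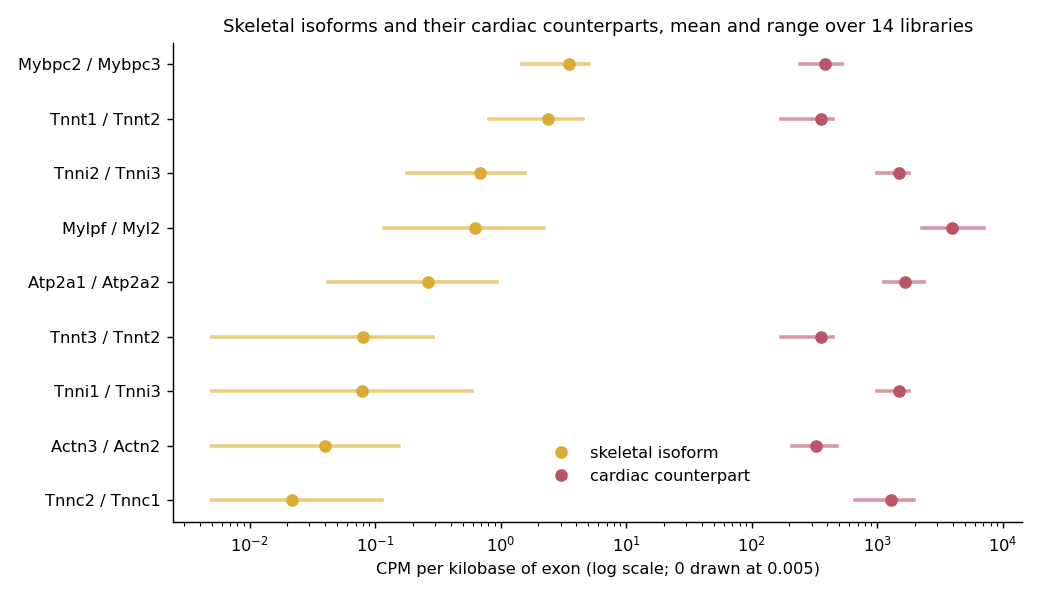
Level of each skeletal isoform and of its cardiac counterpart in CPM per kilobase of exon, on a log axis; points are means and lines the range over 14 libraries, with 0 drawn at 0.005. The 2 kinds of gene do not overlap in any pair, and Mybpc2 and Tnnt1 come closest to their counterparts.

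The genes lie mostly on 1 chromosome, and their surroundings bear on how the counts can be read. In GRCm38, 6 of the 9 are on chromosome 7: Tnnt1 at chr7:4504570-4516382, Mybpc2 at chr7:44501699-44524656, Atp2a1 at chr7:126445858-126463108, Mylpf at chr7:127208890-127214298, and the neighbours Tnni2 at chr7:142441808-142444410 and Tnnt3 at chr7:142498836-142516009. Tnnc2 is at chr2:164777161-164779967, Tnni1 at chr1:135779434-135810989 and Actn3 at chr19:4861216-4877909. Tnnt1 begins its transcript 1922 bases beyond the end of Tnni3, on the same strand, and Tnni3 had 2066 to 3716 CPM. Atp2a1 shares 3388 bases with Rabep2 on the opposite strand (2.20 to 5.70 CPM), Tnnt3 shares 7936 bases with Prr33 (at least 4.50 CPM in every library), Tnnc2 shares 1662 bases with Ube2c and Mybpc2 shares 2568 bases with Gm44646. The strand setting of the counting is not given in the sources used here, so reads of these pairs may have been shared or lost, and the part of this in the results was not tested. Of 32 tested genes that start within 50 kb of a member's start, Phlda3, near Tnni1, was the only gene that passed the test, for age in the knockout. In that comparison 2.25% of all genes passed.

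The start regions of the 4 tested members with a RefSeq entry are shown because the comparisons rest on these transcripts. RefSeq on GRCm38.p6 had entries for 6 members and none for Tnni2, Tnnt3 or Actn3. Each line holds the bases before the start that the gene models do not place in an exon, on the gene's own strand, with capitals for an E-box (CANNTG, the motif of myogenic regulators) or an MCAT element (CATTCC or its complement GGAATG). They span chr7:127211358-127211607 on the plus strand for Mylpf and, on the minus strand, chr7:126463109-126463323 for Atp2a1, chr7:4516005-4516225 for Tnnt1 and chr7:44524670-44524919 for Mybpc2. The starts used here are those of RefSeq. For Mylpf and Tnnt1 the bases lie inside the GENCODE gene spans given above, and the distances to neighbours use the GENCODE spans.
Mylpf: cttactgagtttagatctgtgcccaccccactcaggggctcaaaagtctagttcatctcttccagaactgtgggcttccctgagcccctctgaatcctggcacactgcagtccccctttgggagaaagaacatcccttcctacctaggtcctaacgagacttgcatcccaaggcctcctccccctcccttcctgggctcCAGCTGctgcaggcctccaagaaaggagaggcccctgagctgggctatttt
Atp2a1: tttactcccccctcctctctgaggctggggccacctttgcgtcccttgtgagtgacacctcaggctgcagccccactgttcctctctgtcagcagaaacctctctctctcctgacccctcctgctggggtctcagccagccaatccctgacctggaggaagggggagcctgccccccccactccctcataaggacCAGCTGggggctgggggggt
Tnnt1: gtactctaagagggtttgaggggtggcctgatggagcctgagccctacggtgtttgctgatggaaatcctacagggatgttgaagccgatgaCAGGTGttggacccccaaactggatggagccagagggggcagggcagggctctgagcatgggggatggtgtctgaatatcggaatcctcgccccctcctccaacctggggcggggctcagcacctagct
Mybpc2: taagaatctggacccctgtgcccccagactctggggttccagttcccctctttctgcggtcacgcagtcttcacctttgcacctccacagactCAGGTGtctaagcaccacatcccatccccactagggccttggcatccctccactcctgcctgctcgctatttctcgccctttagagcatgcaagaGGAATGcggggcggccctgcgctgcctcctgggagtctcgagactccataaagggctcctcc
Both strands of the 250 bases before each start were searched, with motifs that do not overlap each other here. Mylpf and Atp2a1 each held 1 E-box, CAGCTG, 51 and 55 bases before the start. Tnnt1 and Mybpc2 each held 1 of the form CAGGTG, 158 and 157 bases before it, and Mybpc2 also held the 1 MCAT element. An E-box stood in 66.2% of 32851 windows of this length and an MCAT element in 12.6%. No MEF2 or CArG box was found in the 4 windows; these stood in 2.92% and 1.47% of all windows. The matches are descriptions of the letters.

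The 5 tested isoforms at 2 months were compared first by genotype, which asks whether removing p62 from cardiac muscle cells alters them. By edgeR's quasi-likelihood F-test, adjusted after Benjamini and Hochberg over all genes, no member passed, against 0.00644% of all genes, which is Sqstm1 alone. At an unadjusted p below 0.05 there were 2 members and 494 genes. Atp2a1 had 0.969, 0.537 and 0.271 CPM in wild-type replicates 1 to 3 and 2.32, 3.24 and 0.485 CPM in knockout replicates 1 to 3. The first 2 knockout hearts lay above all wild-type hearts and the third lay among them. The fitted log2 difference was 1.75 (SE 0.66, unadjusted p = 0.0191, adjusted p = 0.9997), and the exact two-sided permutation p was 0.3, where 0.1 is the smallest that 3 against 3 allows.

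Mylpf had the same shape at 2 months. The wild-type hearts held 0.582, 1.19 and 0.425 CPM and the knockout hearts 2.37, 1.77 and 0.687 CPM, from 46 and 104 counts in all. Knockout replicate 3 was again the low heart and overlapped the wild type. The log2 difference was 1.16 (SE 0.49, unadjusted p = 0.0332, adjusted p = 0.9997 by edgeR), with an exact permutation p of 0.2. Tnni2 measured 1.90, 1.19 and 1.16 CPM in wild-type hearts and 2.32, 2.26 and 1.05 CPM in knockout hearts, and Tnnt3 had 6, 0 and 5 counts against 9, 7 and 1. Knockout replicate 3 was thus the lowest of its group in all 4 transcripts. The clock transcript Ciart, noticed after its values were seen, was at 16.3 CPM in that library and at 0.657 and 1.20 CPM in the other 2 knockout hearts. It was also high, at 20.2 CPM, in wild-type replicate 3, the lowest wild-type heart for Mylpf, Atp2a1 and Tnni2 but not for Tnnt3. Tnnt1 was lowest of its group in that heart and highest of its group in knockout replicate 3. Its part in these results was not tested.

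The most abundant pair did not differ by genotype beyond their spread at 2 months. Tnnt1 measured 6.48, 9.91 and 3.71 CPM in wild-type hearts and 7.68, 5.32 and 9.22 CPM in knockout hearts (log2 difference 0.16, SE 0.37). Mybpc2 was at 16.8, 5.31 and 12.5 CPM against 9.65, 11.2 and 11.2 CPM (log2 difference -0.12, SE 0.37). In both, the wild-type hearts spanned the range of the knockout hearts. The median log2 difference of the 5 members was 0.39, beside -0.00 over all genes.

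Actn3 was the member whose groups did not overlap at 2 months. It had 4, 4 and 2 counts in the wild-type hearts and 0 in each knockout heart (exact permutation p = 0.1, the smallest possible). With a floor of 3 counts over the group in place of 0, the knockout was 3.27-fold lower. That ratio leaves out the counting error of the wild-type counts. The 95% Poisson interval of the pooled level was 0.0701 to 0.269 CPM in wild-type hearts and 0 to 0.0550 CPM in knockout hearts. Without knockout replicate 2 or 3 the ratio was 2.17-fold or 2.06-fold, since fewer libraries raise the floor. Among the genes tested, 3.72% were lower in the knockout without overlap and 4.43% higher, and no member was higher without overlap. At 15 months Actn3 had 0, 5, 5 and 0 counts in wild-type and 4, 13, 2 and 1 in knockout hearts, which overlapped. With 40 counts in all 14 libraries the gene was not tested across genes, and these intervals and floors cover counting error only.

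**Figure D2:**
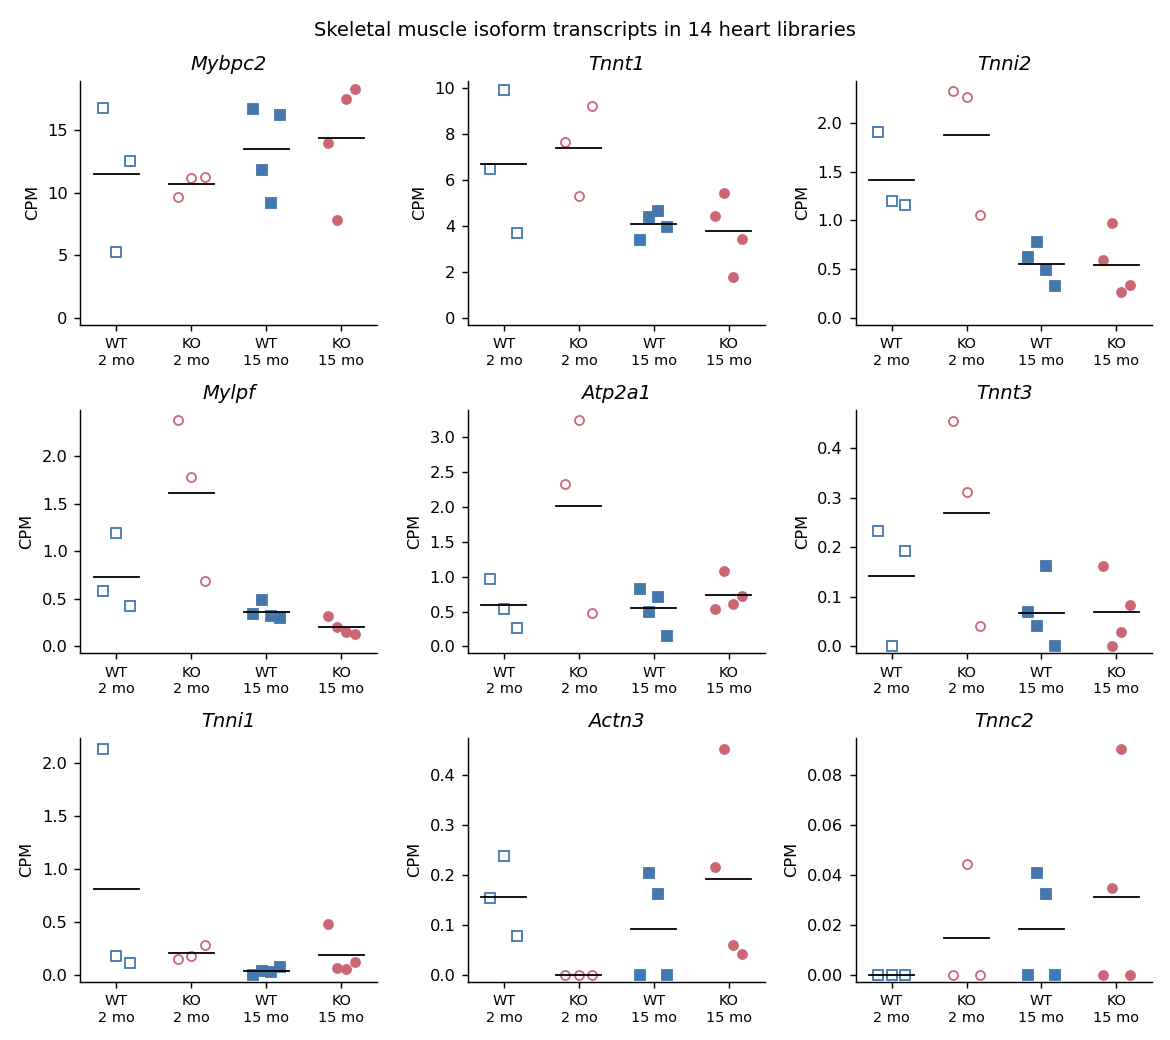
CPM of the 9 isoforms in each library, by genotype and age, each on its own scale; squares are wild type, circles knockout, open 2 months, filled 15 months, and bars are group means. Knockout replicates 1 and 2 at 2 months stand high for Mylpf, Atp2a1, Tnni2 and Tnnt3, and wild-type replicate 1 at 2 months stands high for Tnni1.

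At 15 months no member passed the test between genotypes (0.00644% of all genes, again Sqstm1 alone), and none of the 5 had an unadjusted p below 0.05. Mylpf measured 0.345, 0.488, 0.325 and 0.295 CPM in wild-type hearts and 0.324, 0.209, 0.151 and 0.126 CPM in knockout hearts, on 40 and 20 counts. Of the knockout hearts, 3 lay below every wild-type heart and replicate 1 lay among them. The log2 difference was -0.87 (SE 0.51, adjusted p = 0.999 by edgeR), opposite in sign to that at 2 months. The exact permutation p was 0.0571, where 0.0286 is the smallest that 4 against 4 allows.

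All 9 members overlapped between genotypes at 15 months, where 1.23% of tested genes were lower and 0.76% higher in the knockout without overlap. Tnni2 measured 0.620, 0.773, 0.487 and 0.332 CPM in wild-type hearts and 0.593, 0.973, 0.271 and 0.337 CPM in knockout hearts, and its log2 difference was -0.02 (SE 0.44). Atp2a1 was at 0.827, 0.488, 0.715 and 0.147 CPM against 0.539, 1.08, 0.602 and 0.715 CPM (log2 difference 0.43, SE 0.58). Tnnt1 lay between 3.38 and 4.68 CPM against 1.78 and 5.42 CPM (log2 difference -0.13, SE 0.33), and Mybpc2 between 9.16 and 16.8 CPM against 7.82 and 18.3 CPM (0.10, SE 0.31). The median of the 5 members was -0.02, beside 0.01 over all genes.

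Whether the genotype effect itself changed with age was tested as a difference of differences. For Mylpf it was -2.03 on the log2 scale (SE 0.71, unadjusted p = 0.0122), with an adjusted p of 0.9999 by edgeR, and for Atp2a1 it was -1.32 (SE 0.88). Tnni2, Tnnt1 and Mybpc2 had differences of -0.42, -0.28 and 0.21. No gene passed this test (0.0% of 15528), though 577 had an unadjusted p below 0.05 in edgeR.

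The age comparisons ask what changes between 2 and 15 months within a genotype, and the knockout gave the 1 member that passed the test. Mylpf fell from 2.37, 1.77 and 0.687 CPM at 2 months to 0.324, 0.209, 0.151 and 0.126 CPM at 15 months in knockout hearts. Every old heart was below every young heart. The fitted log2 change was -3.00 (SE 0.50, adjusted p = 0.00913 by the same edgeR test), a fold of 7.99, and the exact permutation p was 0.0286, the smallest possible. Mylpf was the only member of 5 that passed, where 2.25% of all genes passed in either direction, 1.18% as lower and 1.07% as higher with age. The call rests on 104 counts at 2 months and 20 at 15 months. The old knockout hearts held 6, 6, 5 and 3 counts, below the filter's minimum of 10. Mylpf thus entered the test through the young hearts of both genotypes, and the young knockout hearts are the high side of this comparison. The filter therefore favoured a fall with age, and the call alone does not settle its direction. With no filter the log2 change was -2.98 (adjusted p = 0.00125 by edgeR).

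The call was lost without 1 library and with a covariate for transcript length. Without knockout replicate 1 at 2 months the log2 change was -2.61 and the adjusted p 0.0688. The libraries differed in how counts depended on exon length: the slope of log expression on log length was between -0.177 and -0.0105 in the 6 libraries at 2 months and positive in 6 of 8 at 15 months, reaching 0.235. Genes with up to 1500 bases of exon, which include Mylpf (1062 bases) and Tnni2 (1497 bases), had a median log2 change of -0.56 in the knockout and -0.49 in the wild type, beside 0.15 and 0.10 for genes above 4000 bases. Of these short genes, 3.60% passed as lower with age in the knockout, and their 5th percentile was -1.57. With the slope as a covariate, an alternative added after seeing the data, the change of Mylpf was -2.35 and its adjusted p 0.134, that of Tnni2 was -1.75 (adjusted p = 0.284 by edgeR), and 86 genes passed in place of 349. The slope goes largely with age in these libraries, so that their parts cannot be told apart.

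**Figure D3:**
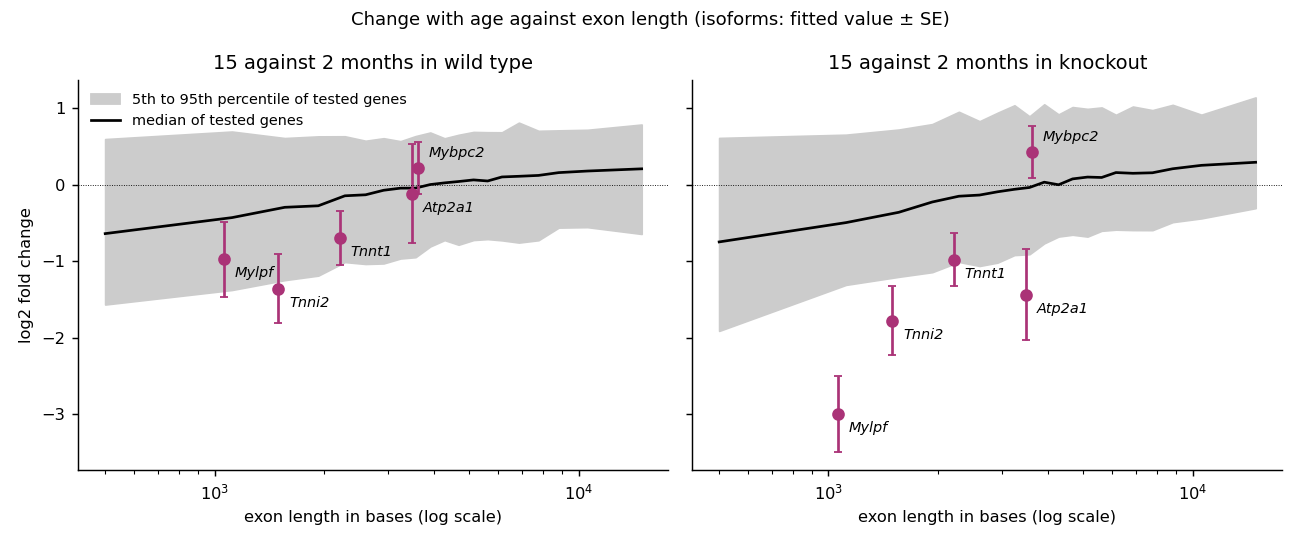
Change with age on the log2 scale against exon length in bases (log axis), in wild-type and knockout hearts; the line and band are the median and the 5th to 95th percentile of tested genes in 20 bins of length, and points are the 5 isoforms with their SE. The median of all genes rises with length in both panels, and Mylpf at -3.00, Tnni2 at -1.78 and the longer Atp2a1 at -1.44 in the knockout, like Tnni2 at -1.36 in the wild type, lie below the band.

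Tnni2 was also lower with age, with an adjusted p just above the threshold of 0.05. In the knockout it went from 2.32, 2.26 and 1.05 CPM at 2 months to 0.593, 0.973, 0.271 and 0.337 CPM at 15 months, without overlap, a log2 change of -1.78 (SE 0.45, adjusted p = 0.0528 by edgeR) and an exact permutation p of 0.0571. In the wild type it went from 1.90, 1.19 and 1.16 CPM to 0.620, 0.773, 0.487 and 0.332 CPM, again without overlap. The change there was -1.36 (SE 0.45, adjusted p = 0.117 by edgeR), with an exact permutation p of 0.0286. DESeq2 called the change in the knockout (adjusted p = 0.00653), and it also called more of all genes in that comparison than edgeR did.

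Mylpf in the wild type had a log2 change of -0.97 (SE 0.49, adjusted p = 0.239 by edgeR), and its lowest young heart, at 0.425 CPM, lay within the range of the old ones. No member passed in the wild type, where 1.04% of all genes did. Tnnt1, at 3.71 to 9.91 CPM at 2 months and 3.38 to 4.68 CPM at 15 months, had a change of -0.70 (SE 0.35, adjusted p = 0.236 by edgeR). In the knockout it was at 5.32 to 9.22 CPM at 2 months and 1.78 to 5.42 CPM at 15 months, with a change of -0.98 (SE 0.35, adjusted p = 0.107 by edgeR). The old hearts reached into the young range in both genotypes.

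Atp2a1 and Mybpc2, the longest of the 5 transcripts, did not pass with age in either genotype. Atp2a1 had a change of -0.12 (SE 0.64) in the wild type and of -1.44 (SE 0.59, adjusted p = 0.143 by edgeR) in the knockout, where the low young heart, at 0.485 CPM, was below all the old ones. This change was -0.91 to -1.91 when a library was left out, the smallest without knockout replicate 2 at 2 months, and -2.12 with the length slope as a covariate (adjusted p = 0.323 by edgeR). Mybpc2 had positive values, 0.22 (SE 0.34) in the wild type and 0.43 (SE 0.34, adjusted p = 0.429 by edgeR) in the knockout. The median change of the 5 was -0.70 in the wild type and -1.44 in the knockout, beside -0.02 and 0.01 over all genes. Genes with up to 1500 bases of exon, among them Mylpf and Tnni2, had medians of -0.49 and -0.56. Comparisons that share a group of hearts are not independent of each other. In whole tissue, fewer cells of a type and less RNA per cell cannot be told apart.

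**Figure D4:**
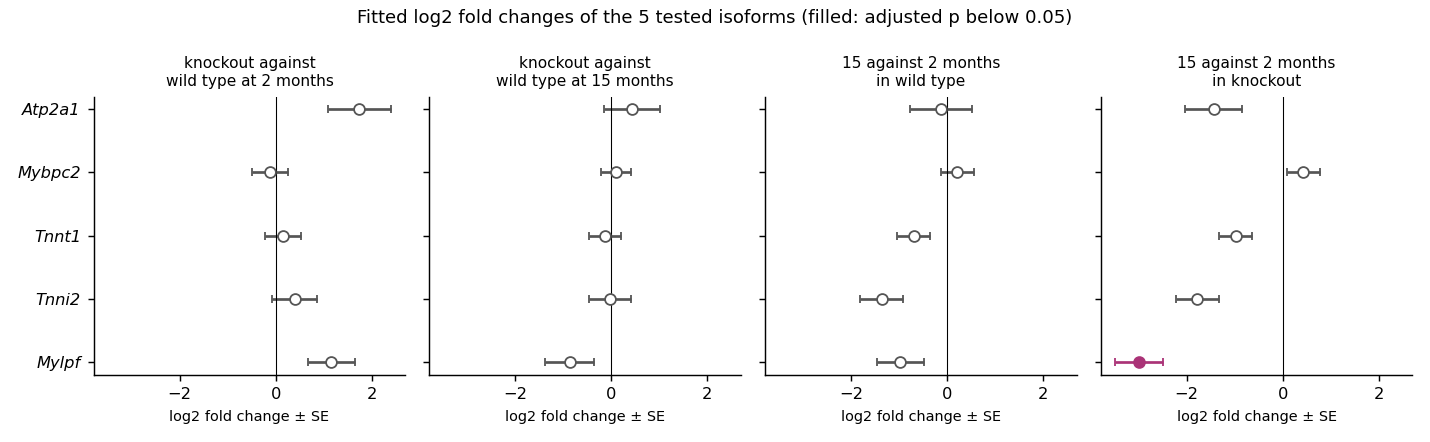
Fitted log2 fold changes with SE for the 5 tested isoforms in the comparisons by genotype and by age; the filled point is the value with an adjusted p below 0.05 in edgeR. Mylpf with age in the knockout, at -3.00, is the filled point, and Mybpc2 lies between -0.12 and 0.43.

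Among the rare members, Tnni1 had most of its counts in 1 library. It had 55, 3 and 3 counts in wild-type hearts at 2 months and 0, 1, 1 and 2 at 15 months, with no overlap (61 against 4 counts, exact permutation p = 0.0286, the smallest possible). The 55 counts were in replicate 1, the library with 638 CPM of Myl7, whose summed atrial markers reached 1803 CPM against 110 to 167 CPM in the other 2-month libraries. With Tnni2 it made 2 members lower without overlap with age in the wild type, beside 7.57% of tested genes, and no member was higher without overlap, beside 8.6%. In the knockout Tnni1 had 3, 4 and 7 counts at 2 months and 9, 2, 2 and 3 at 15 months, and the groups overlapped. The 9 counts were in replicate 1, with 58.1 CPM of Myl7. The other 3 libraries with Myl7 above 10 CPM, wild-type replicates 1, 2 and 4 at 15 months, had 0, 1 and 2 counts of Tnni1, and the 7 counts were in a library with 0.202 CPM of Myl7. The part of the atrial transcripts in these values was not tested.

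Tnnt3, Actn3 and Tnnc2 stayed near the floor with age. Tnnt3 had 6, 0 and 5 counts in young and 2, 1, 5 and 0 in old wild-type hearts, and 9, 7 and 1 in young and 3, 0, 1 and 2 in old knockout hearts. Actn3 was at 0 counts in the young knockout hearts and had 20 in the old ones (exact permutation p = 0.0857), where 8.83% of tested genes were higher without overlap. With the floor of 3 counts in place of 0, the old hearts were 4.29-fold higher. That ratio leaves out the counting error of the 20 counts. The 95% Poisson interval of the pooled level was 0 to 0.0550 CPM in young and 0.117 to 0.296 CPM in old knockout hearts. Of the 20 counts, 13 were in replicate 2, and without it the ratio was 2.07-fold. Without young knockout replicate 2 or 3, which raises the floor, it was 2.85-fold or 2.71-fold. It was 1 of 9 members higher without overlap in that comparison, and Mylpf and Tnni2 were lower without overlap, as were 11.3% of tested genes. Tnnc2 had 7 counts in all 14 libraries, 0 of them in young wild-type hearts. The 95% Poisson interval of the pooled level there reached up to 0.0539 CPM. The 36 permutation tests of single members were not adjusted for their number.

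Some members varied together from heart to heart. Over the 14 libraries, which share depth, length slope and group differences, Pearson's r of log2 CPM was 0.85 for Mylpf with Tnni2 and 0.57 after group means were removed. Tnni2 and Atp2a1 had 0.62 and 0.71, and Mylpf and Atp2a1 had 0.55 and 0.53. By rank the pairs with Atp2a1 were weaker, with Spearman's rho of 0.41 for Tnni2 and 0.19 for Mylpf, against 0.88 for Mylpf with Tnni2. Tnnt1 and Mybpc2 went opposite ways, with -0.68 and -0.65 within groups. Tnnt1 had 0.77 with Tnni3, the gene just before it, and 0.62 within groups, and Atp2a1 had 0.41 with the overlapping Rabep2 and 0.79 within groups. The length slope of the library had r = -0.73 with Mylpf, -0.71 with Tnnt1, -0.62 with Tnni2, -0.01 with Atp2a1 and 0.42 with Mybpc2. Within groups these values were -0.44, -0.46, -0.10, 0.32 and 0.26.

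The genes most like each member across libraries were mostly not muscle isoforms. Among genes of at least 1 CPM on average, Pnkd (Pearson's r = 0.901), 2810025M15Rik (0.897) and Slc25a4 (0.897), the heart's ADP/ATP carrier, were nearest to Mylpf. Trappc1 (0.915) led for Tnni2, Rpl23 (0.915) for Tnnt1, Mpi (0.905) for Atp2a1 and Abcc1 (0.835) for Mybpc2. These values come from 14 libraries and a search over all such genes, and they carry no test.

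The fast, embryonic and perinatal myosins and most myogenic regulators were at or near 0 in the same hearts. Of 43 other skeletal genes in 3 lists (contractile genes, triad and metabolic genes, and myogenic regulators with the muscle acetylcholine receptor), 5 had no count in any library: the fast myosin Myh4, the regulators Myf6 and Pax7, and the receptor subunits Chrnd and Chrne. The fast myosins Myh1 and Myh2 had 4 and 1 counts over 14 libraries, the embryonic and perinatal myosins Myh3 and Myh8 had 3 and 4, and Myog had 1. In all, 24 of the 43 stayed below 1 CPM in every library. Another 14 reached 10 CPM in at least 1 library, among them the skeletal actin Acta1 (63.0 to 549 CPM), the light chain Myl1 and the muscle creatine kinase Ckm (1016 to 1543 CPM), genes that the heart also uses. Cacna1s (7.37 to 28.1 CPM), Neb (3.82 to 31.3 CPM) and Casq1 (2.69 to 20.5 CPM) were also among the 14. Lung and thymus markers summed to at most 0.348 CPM.

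**Figure D5:**
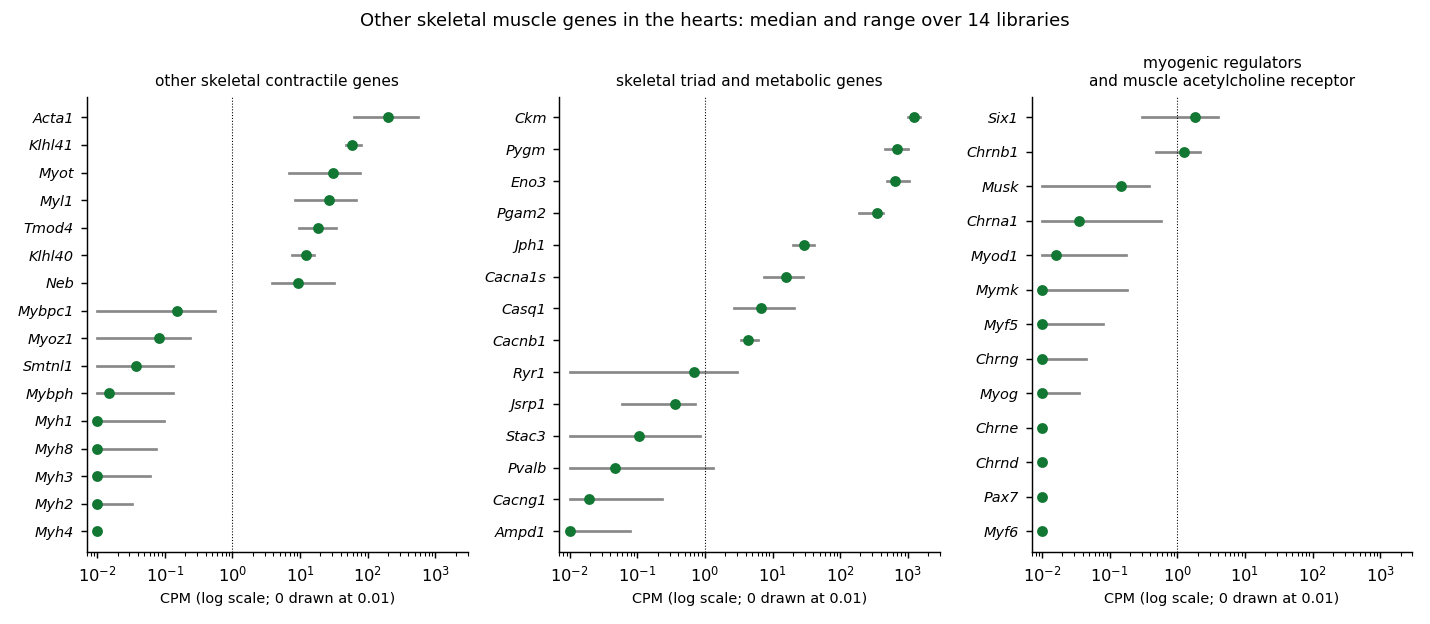
Levels of 43 other skeletal muscle genes in CPM on a log axis, in the 3 lists; points are medians and lines the range over 14 libraries, with 0 drawn at 0.01 and a dotted line at 1 CPM. The myosins Myh1, Myh2, Myh3, Myh4 and Myh8 and most myogenic regulators lie at the left edge, and Acta1 and Ckm lie above 10 CPM.

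No gene of the 3 lists passed between genotypes at either age. Of the 43, 19 were tested. With age 2 of the 19 were called higher and 0 lower in the wild type, and 4 higher and 1 lower in the knockout, where 0.612% and 0.425% of all genes and 1.07% and 1.18% were called. Both genes called in the wild type rose in both genotypes by the same edgeR test. Myot, the Z-disc protein myotilin, rose by 1.84 on the log2 scale in the wild type (adjusted p = 0.0320) and by 2.37 in the knockout (adjusted p = 0.00696). Cacna1s, the skeletal L-type calcium channel, rose by 1.20 (adjusted p = 0.0149) and 1.22 (adjusted p = 0.0110). Ryr1, the skeletal calcium release channel, rose by 3.35 in the knockout (adjusted p = 0.0352 by edgeR), from 0 to 0.310 CPM at 2 months to 0.799 to 3.03 CPM at 15 months. In the wild type its change was 3.36 (adjusted p = 0.0617 by edgeR), from 0 to 0.155 CPM to 0.586 to 1.23 CPM. No 2-month library held more than 7 counts of Ryr1, below the filter's minimum of 10. Ryr1 was thus tested only because it was high in the 15-month hearts, so the filter set its sign with age. Its place among the 4 genes called higher therefore says nothing on direction. Jph1, a triad junction protein, rose by 0.69 in the knockout (adjusted p = 0.0274 by edgeR) and had a change of 0.42 in the wild type (adjusted p = 0.119). The muscle enolase Eno3 fell by 0.71 in the knockout (adjusted p = 0.0266 by edgeR) and had a change of -0.50 in the wild type (adjusted p = 0.0953). Jph1 was higher and Eno3 lower with age without overlap in both genotypes. In the wild type 8.6% of tested genes were higher and 7.57% lower without overlap, and in the knockout 8.83% and 11.3%. Cacna1s and Jph1 thus had positive log2 changes with age in both genotypes. Both have more exon bases than Mylpf, and the median change of all tested genes rose with exon length. The length slope of the library had r = 0.61 with Myot and 0.60 with Cacna1s over 14 libraries, but 0.07 and -0.20 after group means were removed. Its part in these changes was not tested. No gene passed the test of whether the genotypes differed in their knockout effect between ages.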

How the data were processed

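The deposited table holds raw counts per gene, as the authors left them, for 14 mouse heart libraries prepared with a stranded, rRNA-depleting kit. The tools named are featureCounts 1.6.3, STAR 2.7.3a, cutadapt 1.16 and DESeq2 1.26.0 with GRCm38, per the submitters' processing notes. How strand and multi-mapping reads were treated, and which annotation release was counted, is not given in the sources used here. GENCODE M21 supplied symbols, positions and exon lengths (55227 of 55487 identifiers matched), and RefSeq on GRCm38.p6 the promoter sequences.

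Counts were scaled by TMM, filtered with filterByExpr (minimum count 10, minimum total 15) and fitted with 1 mean per group in edgeR 4.0.16 (quasi-likelihood F-test, R 4.3.3), with Benjamini-Hochberg adjustment over 15528 genes and a threshold of 0.05. The fit was tested on simulated data. Alternatives were DESeq2 1.42.0, RLE size factors, other filters, mitochondrial genes left out, only the groups compared, a replicate block, each library left out and, added later, a length slope. Single members had exact two-sided permutation tests on log2(CPM + 0.1). Floors are 3 counts. The length slope is that of a library's log2 deviations from the gene means on log2 exon length. Library totals, 20218992 to 30404416 counts, leave transcripts below about 1 CPM with few counts. No pair of libraries agreed within sampling noise.

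Named genes are the 9 members, Sqstm1, the cardiac counterparts, called or leading genes of the lists, called neighbours within 50 kb and the most similar genes. Members and lists were chosen with earlier results of these data known.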

Additional observations from a re-analysis of the deposited data

Results flagged for a closer look

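Tnni1 in knockout replicate 1 at 15 months was at 0.485 CPM (9 counts), while the other 3 hearts of that group were at 0.0602, 0.0695 and 0.126 CPM. The gap to the nearest heart was 0.845 of the group's range, above Dixon's critical value of 0.829 for 4 samples. It was 1 of 18 groups of 4 libraries checked over the 9 members, and chance flags about 1 in 20. The same library had 58.1 CPM of the atrial light chain Myl7 and the highest share of mitochondrial counts, 46.0%. Their part in the value was not tested.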

How the results depend on the processing

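The fall of Mylpf with age in the knockout was called in 6 of 7 alternatives in which it was tested (adjusted p 2.446e-05 to 0.134) and in 13 of 14 fits without a library (log2 change -3.37 to -2.61). It was lost with the length slope (-2.35). The filter at a mean CPM of 1 removed it, leaving 0 members called, as with the length slope. With no filter or DESeq2, 2 members were called, Mylpf and Tnni2 (-1.76 and -1.78). Both settings also called more of all genes, 463 with no filter against 349 in the main fit, and more still in DESeq2. With no filter 1 was called in the wild type, Tnni1 (-4.35, adjusted p = 0.0422 by edgeR), among 226 genes called in place of 161. Leaving out libraries gave 0 to 2 members called with age in the knockout.

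Counts of genes called depended on tool and libraries. By genotype at 2 months, 1 gene became 3 with no filter, 2 at a mean CPM of 1, 7 in DESeq2 and 5 with the length slope; at 15 months it became 7 in DESeq2, 2 with only the groups compared and 1 to 3 without a library. With age in the wild type, 161 became 1100 in DESeq2, 86 with only the groups compared and 38 to 796 without a library. With age in the knockout, 349 became 1622, 134 and 49 to 3523, the lowest without knockout replicate 1 at 2 months and the highest without knockout replicate 1 at 15 months, and 86 with the length slope. The difference of knockout effects had 1 gene in DESeq2 and 0 to 1 without a library.

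The labels do not say whether replicate numbers pair the hearts. Hearts with the same number had correlations of deviations from group means of -0.441 to 0.320, within age and across ages. Hearts of unlike numbers had -0.426 to 0.549 within an age. At 2 months the replicate 3 hearts, both high in Ciart, had 0.308. Correlations of so few hearts cannot settle whether they were paired. With the number as a replicate block, 55 genes were called with age in the wild type and 70 in the knockout, Mylpf among them (-2.79, adjusted p = 0.0229), and the sign turned for Mybpc2 by genotype at 2 months (0.012) and Atp2a1 with age in the wild type (0.14). No sign-changing value was called.

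Without 1 library, signs also turned within these ranges: by genotype at 2 months, Mybpc2 -0.45 to 0.25 and Tnnt1 -0.12 to 0.54; at 15 months, Tnni2 -0.50 to 0.22, Mybpc2 -0.049 to 0.30 and Tnnt1 -0.37 to 0.12; with age in the wild type, Atp2a1 -0.46 to 0.50 and Mybpc2 -0.12 to 0.59; and for the difference of knockout effects, Mybpc2 -0.15 to 0.55. The cause of these changes was not tested. Alternatives were run for members, not for list genes. Low counts limit Tnnc2, Tnni1, Tnnt3 and Actn3 most.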
